A study of Mus musculus with 32 samples.

Results

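The genes described here were 34 genes of aminoacyl-tRNA synthesis and the amino acid response, taken by their symbols from a raw count table of 24421 genes. The rule used no measured value, but the list was drawn up with earlier results of these data known. They comprised 20 cytosolic tRNA synthetases (Aars, Cars, Dars, Eprs, Farsa, Farsb, Gars, Hars, Iars, Kars, Lars, Mars, Nars, Qars, Rars, Sars, Tars, Vars, Wars and Yars), 8 enzymes of serine, glycine, folate and asparagine synthesis (Phgdh, Psat1, Psph, Shmt1, Shmt2, Mthfd1, Mthfd2 and Asns), 3 genes of amino acid transport (Slc7a5, Slc3a2 and Slc7a11) and 3 genes induced by stress (Chac1, Trib3 and Ddit4). All 34 passed the filter on low counts and were among the 14154 genes tested.

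RNA-seq was performed on 8 fractions of bone marrow from C57BL/6 mice, female per the study's methods, at 10 weeks (Young) and 20 months (Aged). There were 2 libraries for each fraction and age, 32 in all, and no mouse carried a transgene or a treatment. Hematopoietic stem cells (HSCs) and the multipotent progenitors MPP1, MPP2, MPP3 and MPP4 shared a surface phenotype of IL-7Ra-, Lin-, Sca-1+ and c-kit+. Within it HSCs were CD34-, CD150+, CD48- and Flt3-, MPP1 differed from HSCs in being CD34+, and MPP2 were CD34+, CD150+ and CD48+ but Flt3-. MPP3 were CD34+ and CD48+ without CD150 or Flt3, and MPP4 were CD34+, CD48+ and Flt3+ without CD150. Granulocyte-macrophage progenitors (GMPs) were Sca-1-, c-kit+, FcgR+ and CD34+, megakaryocyte-erythrocyte progenitors (MEPs) were Sca-1-, c-kit+, FcgR- and CD34-, and common lymphoid progenitors (CLPs) were IL-7Ra+ with low Sca-1 and low c-kit. Marrow was pooled by age before sorting in duplicate, and no source states which mice went into each duplicate, so the p-values measure only the spread between these libraries, which may be technical.

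A tRNA synthetase joins an amino acid to its tRNA and so supplies the ribosome, and the cytosolic enzymes serve the translation of nuclear genes. Phgdh, Psat1 and Psph make serine from an intermediate of glycolysis, Shmt1 and Shmt2 turn serine into glycine and pass a carbon unit to folate, Mthfd1 and Mthfd2 carry that unit on towards purines and thymidylate, and Asns makes asparagine. When amino acids run short, uncharged tRNA activates the kinase Eif2ak4 (Gcn2), phosphorylated eIF2alpha favours translation of the transcription factor Atf4, and Atf4 binds C/EBP-ATF response elements in genes of amino acid import, synthesis and tRNA charging, many of these 34 among them. Protein synthesis in HSCs is known to be kept low in comparison with that of their progeny.

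The core of that element, TGATGNAA, was searched on both strands of the RefSeq promoters of GRCm38.p6 (250 bases before to 50 after each gene's start). On the opposite strand the same letters read TTNCATCA. Of the 25 members with a promoter in that set, 9 held a match (36%), against 1219 of 27025 genes (4.51%). Cars, Hars, Lars, Mars, Nars, Rars, Slc7a5, Vars and Wars had no entry. Windows of 30 bases around a match are shown for 6 synthetase and asparagine synthesis genes and for Trib3, 1 window for each gene, because they place the letters in genes the results turn on. They are written in the direction of the gene, with the matched letters in capitals. Distances are counted from the start that RefSeq gives, which for some genes, Asns and Trib3 among them, is not the outer end of the gene in the GENCODE annotation from which gene positions are given below.
Aars, chr8:111033840-111033869, plus strand, 9 bases downstream: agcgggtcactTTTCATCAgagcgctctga
Asns, chr6:7693214-7693243, minus strand, 23 bases upstream: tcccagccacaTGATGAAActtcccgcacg
Gars, chr6:55037960-55037989, plus strand, 30 bases upstream: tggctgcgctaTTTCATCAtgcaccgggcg
Iars, chr13:49682126-49682155, plus strand, 7 bases downstream: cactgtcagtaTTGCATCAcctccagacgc
Tars, chr15:11399655-11399684, minus strand, 15 bases upstream: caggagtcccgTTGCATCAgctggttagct
Trib3, chr2:152344028-152344057, minus strand, 14 bases downstream: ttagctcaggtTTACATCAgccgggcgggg
Yars, chr4:129189895-129189924, plus strand, 3 bases downstream: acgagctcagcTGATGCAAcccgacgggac
The matches shown for Asns and Yars read in the direction of the gene and the others shown on the opposite strand. Chac1 and Slc7a11 were the other members with a match. A match is a description of the letters and not of a bound site.

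Total counts per library ran from 11237384 to 17723245, and the 3 counts that a count of 0 allows came to 0.186 to 0.281 CPM (counts per 1000000 of the TMM-scaled library size), for counting error only. Among genes of the sort antigens in young cells, Flt3 was at 1060 CPM in MPP4 and 11.4 in GMPs, Il7r at 158 in CLPs and 0 in HSCs, MPP1 and GMPs, and Cd34 at 0.351 in MEPs. Transcripts were also present where the protein was gated out, with Flt3 at 280 CPM in MPP3 and 92.5 in MPP2, Cd34 at 204 in HSCs and Il7r at 13.4 in MEPs. Duplicates differed by more than sampling noise in every group. In 14154 tested genes the common dispersion was 0.0127.

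Before age was considered, the question was where along the hierarchy these genes were most expressed. In young cells 20 of the 34 members were highest in MEPs, 10 in GMPs, 2 in HSCs, 1 in CLPs and 1 in MPP2, and 19 were lowest in HSCs. Against the mean of young MPP1 to MPP4, and at an adjusted p under 0.01 by edgeR's quasi-likelihood test with Benjamini-Hochberg adjustment over all genes, 18 members were lower and 3 higher in young HSCs, where 38.1% of all genes were called, 18.9% lower and 19.2% higher. Young GMPs had 26 members higher and 2 lower (64.9% of all genes called, 32.1% higher and 32.7% lower). Young MEPs had 26 higher and 4 lower (70.8% of all genes called, 31.3% higher and 39.5% lower), and young CLPs 19 higher and 2 lower (53.4% of all genes called, 28.2% higher and 25.2% lower). The median log2 difference of the members was -0.26 in HSCs, 0.77 in GMPs, 1.04 in MEPs and 0.28 in CLPs, beside medians over all genes of 0.02, -0.10, -0.29 and 0.00. The 3 members higher in young HSCs were Asns, Trib3 and Ddit4, and Trib3 and Ddit4 were also the 2 that were lower in young GMPs. In bulk libraries, fewer cells of a type and less RNA of a gene per cell cannot be told apart in these levels.

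**Figure D1:**
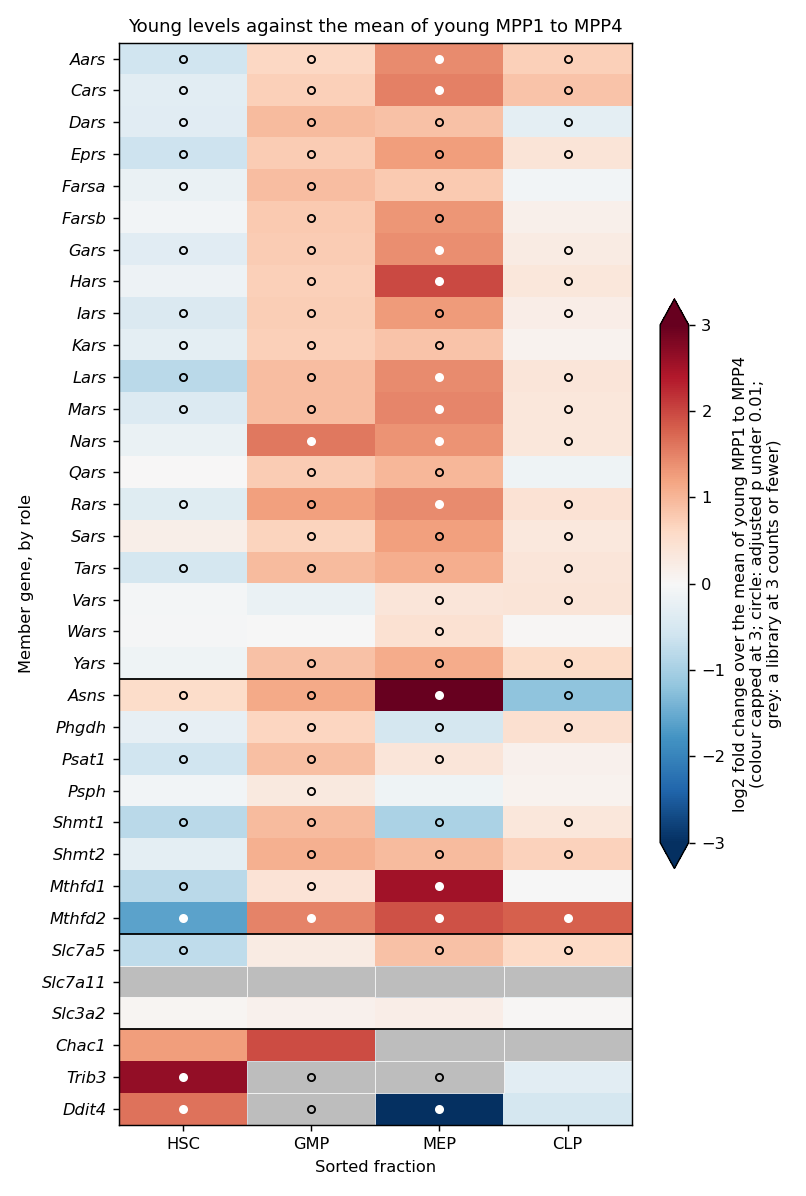
Log2 difference of each of the 34 genes (rows, by role) in young HSCs, GMPs, MEPs and CLPs against the mean of young MPP1 to MPP4 (columns), with the colour capped at 3 in either direction. Circles mark an adjusted p under 0.01 and grey cells have a library at or under 3 counts. Most synthetases are below 0 in HSCs and above 0 in GMPs and MEPs.

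Asns (chr6:7675169-7693254, minus strand, GRCm38) spanned a 45.2-fold range among young fractions, more than any other member with over 3 counts in every library. Its level was 548 and 573 CPM in the libraries of young MEPs, 62.6 and 63.2 in young GMPs, 42.5 and 41.9 in young HSCs, 18.8 and 21.7 in young MPP4, and 11.7 and 13 in young CLPs. Young MEPs stood apart from all other fractions. The log2 difference from young MPPs was 4.30 ± 0.08 in MEPs and -1.21 ± 0.12 in CLPs (edgeR adjusted p 1.02e-20 and 2.23e-08). Values after ± are approximate SEs from the fit of all 32 libraries (n = 2 per group). They are the absolute log2 difference over the square root of edgeR's F statistic. The next ranges were those of Mthfd2, at 11.5-fold from HSCs to MEPs, and Mthfd1, at 10.1-fold from HSCs to MEPs, while synthetases such as Lars (4.62-fold), Hars (4.42-fold) and Aars (4.03-fold) were more even. Vars, the valine enzyme, differed by only 1.48-fold and Slc3a2, the heavy chain shared by several amino acid transporters, by 1.43-fold.

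Levels of different genes were compared only as CPM per kilobase of exon, averaged over the 16 groups. Phgdh, the entry enzyme of serine synthesis, was the highest member at 252 CPM per kb, and Psph, the last enzyme of that route, was the lowest of the enzymes at 11.5. Among the synthetases Vars was the highest at 148 and Cars, the cysteine enzyme, the lowest at 8.95. Slc7a5 and Slc3a2, which pair as the large neutral amino acid transporter, were at 52.6 and 52.9 CPM per kb. Slc7a11, the cystine transporter, was at 0.0174, with no more than 15 counts in any library and 3 or fewer in 21 of 32. Chac1, which breaks down glutathione, had no more than 31 counts in any library and 3 or fewer in 8 of 32.

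With age, more members were upregulated in each MPP fraction than in HSCs. At an adjusted p under 0.01, aged MPP1 had 14 members higher and 1 lower (4.71% and 2.09% of all genes) and aged MPP2 had 16 higher and 0 lower (4.49% and 3.31%). Aged MPP3 had 24 higher and 0 lower (8.14% and 5.79% of all genes), and aged MPP4 had 25 higher and 0 lower (10.3% and 6.27%). In aged HSCs 2 were higher and 0 lower (3.74% and 1.66%). The order among the MPPs depended on the fit, since the 4 libraries of each fraction fitted alone gave 20, 26, 13 and 21 members higher from MPP1 to MPP4 and 0 in HSCs. In GMPs 1 was higher and 9 were lower (9.93% and 8.97%), in MEPs 7 were higher and 3 lower (9.08% and 11.7%), and in CLPs 0 were higher and 5 lower (5.71% and 4.73%). Counted in either direction, HSCs had 5.88% of the members called beside 5.4% of all genes. MPP1 to MPP4 had 44.1%, 47.1%, 70.6% and 73.5% of the members called, beside 6.8%, 7.81%, 13.9% and 16.6% of all genes. The shares were 29.4% beside 18.9% for GMPs, 29.4% beside 20.8% for MEPs and 14.7% beside 10.4% for CLPs. At an unadjusted p under 0.05, edgeR gave 8 members higher and 1 lower for HSCs, and 1 higher and 14 lower for CLPs. From MPP1 to MPP4 it gave 25, 27, 25 and 29 higher and 1, 1, 2 and 2 lower. For GMPs it gave 4 higher and 15 lower, and for MEPs 12 higher and 4 lower. The share of all genes at that threshold was not counted.

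**Figure D2:**
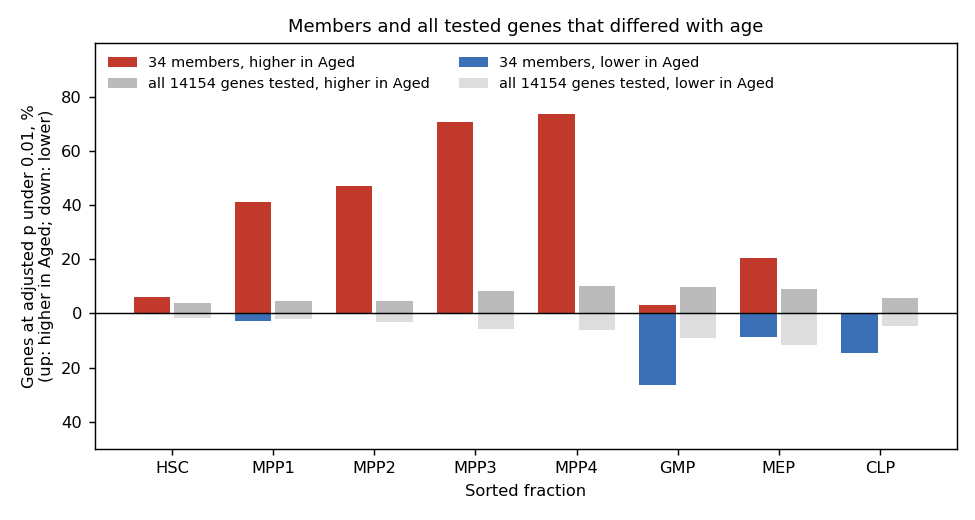
Share (percent) of the 34 members and of all 14154 tested genes called higher (bars up) and lower (bars down) in Aged than in Young cells, by fraction. The members' upward bars exceed those of all genes in MPP1 to MPP4 and MEPs and fall short of them in GMPs and CLPs, where 1 and 0 were higher. In HSCs the bar is 2 members, 5.88% beside 3.74% of all genes, and the 4 HSC libraries fitted alone gave 0.

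The median log2 fold change of the members was 0.10 for HSCs, then 0.30, 0.32, 0.39 and 0.54 from MPP1 to MPP4, and -0.12, 0.13 and -0.15 for GMPs, MEPs and CLPs, while the median over all genes lay between -0.04 and 0.02 in each fraction. Of the 34 members 31 had a positive change in MPP4 and 27 a negative change in CLPs. Both aged libraries were above both young libraries for 28 members in MPP4 (29.8% of all genes), and both were below for 23 members in CLPs (30.4% of all genes) and for 17 in GMPs (27.8%). For the mean change over MPP1 to MPP4, 28 members were higher and 2 lower (36.7% of all genes called, 18.9% higher and 17.7% lower), and the 4 that were not called were Qars, Slc3a2, Slc7a11 and Chac1. Counted by gene, 13 members were higher in every MPP fraction (2.59% of all genes), 30 were called in at least 1 of the 8 fractions (46.2%), and 11 were called higher in some fractions and lower in others (9.5%). Of the 13, the calls of 6 (Asns, Gars, Iars, Mars, Mthfd2 and Yars) held in every MPP fraction under each alternative that was run. Those 11 were Dars, Farsb, Gars, Iars, Nars, Rars, Psat1, Shmt1, Mthfd1, Mthfd2 and Ddit4.

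**Figure D3:**
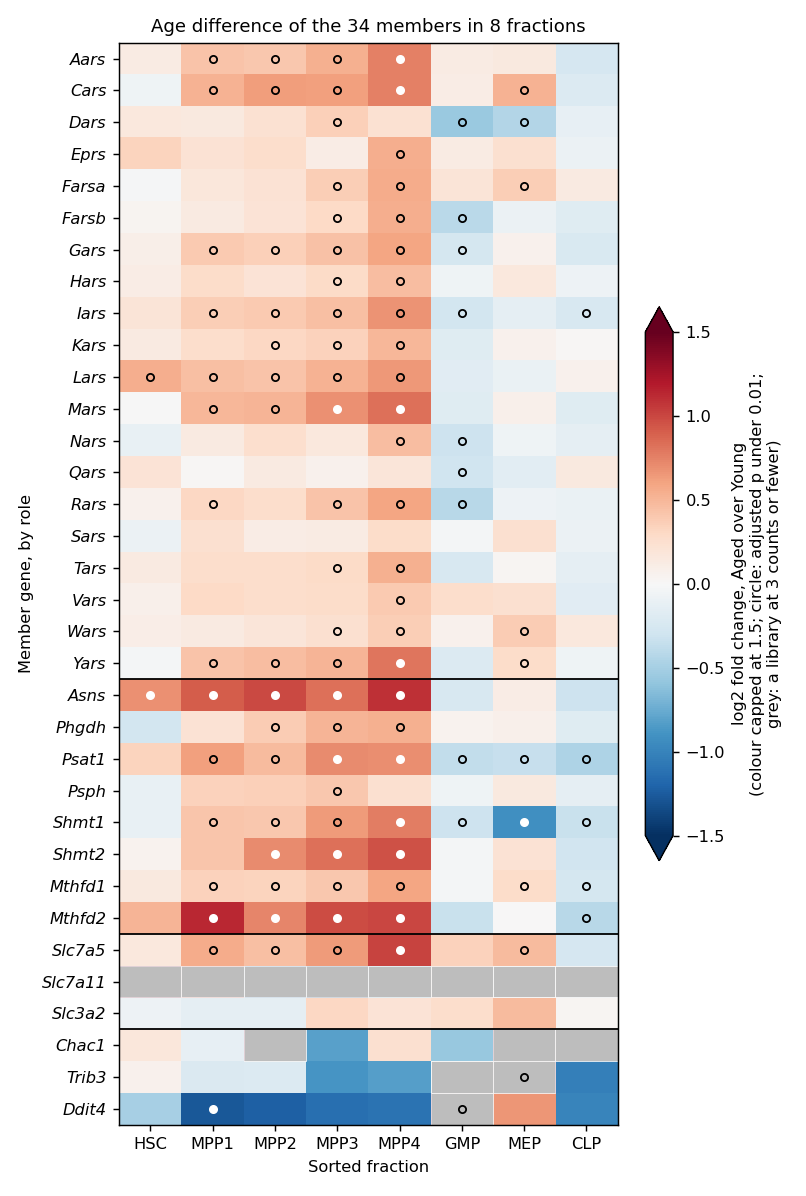
Log2 fold change, Aged over Young, of each of the 34 genes (rows, by role) in the 8 fractions (columns), with the colour capped at 1.5 in either direction. Circles mark an adjusted p under 0.01 and grey cells have a library at or under 3 counts. The synthetases and the enzymes of serine, glycine, folate and asparagine synthesis are above 0 in MPP1 to MPP4, and Ddit4 is below 0 there.

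Among the 20 synthetases, 8 were higher in aged MPP1 and 8 in aged MPP2, and then 15 in MPP3 and 17 in MPP4, with none lower, and 19 were higher in the mean over the MPPs (median log2 fold change 0.33). The exception was Qars, the glutamine enzyme, with a mean change of 0.10 ± 0.04. Among the 19, Sars lost its call with DESeq2 size factors and without the filter. Of all genes 4.71%, 4.49%, 8.14% and 10.3% were higher from MPP1 to MPP4, and 18.9% in the mean. Yars, the tyrosine enzyme, had 86.9 and 85.8 CPM in young MPP4 and 147 and 154 in aged MPP4, a log2 fold change of 0.80 ± 0.07 (adjusted p 1.47e-07). Mars, the methionine enzyme, had 133 and 142 CPM in young and 242 and 246 in aged MPP4 (0.83 ± 0.06, adjusted p 1.79e-08). In both genes the ages did not overlap in any MPP fraction. Aars, the alanine enzyme, rose from 108 and 110 CPM to 181 and 188 in MPP4 (0.75 ± 0.08, adjusted p 3.44e-07), and Cars from 42.3 and 37.1 to 63.9 and 70.0 (0.75 ± 0.10, adjusted p 1.06e-05). Their changes in MPP1 were smaller, at 0.43 and 0.52. Of the 3 synthetases that were not called in MPP4, Dars had a change of 0.23 (adjusted p 0.0413), Sars of 0.28 (0.0566) and Qars of 0.18. Vars, the most abundant synthetase per kilobase, was higher in MPP4 alone among single fractions, at 701 and 740 CPM in young and 918 and 973 in aged libraries (0.39 ± 0.09, adjusted p 0.00155), with changes of 0.26 to 0.30 in the other MPPs that did not pass.

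Lars, the leucine enzyme, was the synthetase called in aged HSCs (5.0% of the 20, beside 3.74% of all genes higher). It had 61.3 and 60.9 CPM in young and 95.8 and 82.3 in aged HSCs (0.54 ± 0.08, adjusted p 0.000176), and 104 and 109 against 159 and 175 in MPP4 (0.65 ± 0.08, adjusted p 5.72e-06). Both aged libraries were above both young ones in HSCs and in all 4 MPPs. Cars in HSCs had 28.6 and 30.3 CPM in young and 25.2 and 31.3 in aged libraries, and Yars had 87.5 and 89.4 in young and 81.1 and 92.5 in aged libraries, so that for these genes the ages overlapped.

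In aged GMPs 7 of the 20 synthetases were lower and 0 higher, where edgeR gave 8.97% of all genes lower. Dars, the aspartate enzyme, fell from 577 and 580 CPM to 378 and 404 (-0.56 ± 0.08, adjusted p 2.73e-05). Iars, the isoleucine enzyme, fell from 294 and 297 to 255 and 233 (-0.28 ± 0.06, adjusted p 0.00167), and Gars, the glycine enzyme, from 307 and 300 to 256 and 249 (-0.26 ± 0.06, adjusted p 0.00238). In each of these the aged libraries were both below the young ones. The calls of Dars, Rars and Farsb held without any 1 library of GMPs, while Gars and Nars lost theirs without each of the 4, Iars without either young library or aged GMP 2, and Qars without young GMP 1 or either aged library. The other log2 fold changes that passed were -0.42 for Rars, -0.40 for Farsb, -0.31 for Nars and -0.30 for Qars. Iars and Gars were higher in each aged MPP fraction, in MPP4 from 158 in both libraries to 252 and 249 CPM (0.67 ± 0.06) for Iars and from 174 and 163 to 243 and 266 (0.59 ± 0.06) for Gars.

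In aged MEPs 4 synthetases were higher and 1 lower (9.08% and 11.7% of all genes). Cars rose from 103 and 107 to 149 and 153 CPM (0.52 ± 0.10, adjusted p 0.000254) and Yars from 209 in both libraries to 251 in both (0.27 ± 0.07, adjusted p 0.0081), a call that was lost without any 1 of the 4 libraries. Wars and Farsa, the tryptophan enzyme and a subunit of the phenylalanine enzyme, had changes of 0.38 and 0.37. Farsb, the other subunit of the phenylalanine enzyme, had a change of -0.09 in MEPs, and Dars fell from 556 and 552 to 413 and 407 CPM (-0.44 ± 0.08, adjusted p 0.000338). In aged CLPs Iars was the synthetase called lower, at 203 and 202 CPM in young and 169 and 173 in aged cells (-0.24 ± 0.06, adjusted p 0.0078), and this call was lost without any 1 of the 4 libraries. The 1 of 20 lower in CLPs was 5.0%, beside 4.73% of all genes. Of the 20, only Sars was called in no single fraction.

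The 8 enzymes of serine, glycine, folate and asparagine synthesis had median log2 fold changes of 0.42, 0.45, 0.67 and 0.73 from MPP1 to MPP4, and of 0.59 in the mean over the MPPs beside 0.33 for the synthetases, a difference between groups of genes that was not tested. All 8 were higher in MPP3 and in the mean over the MPPs, while MPP1 had 5 of them higher and MPP2 and MPP4 had 7 each. The shares of all genes higher were 4.71%, 4.49%, 8.14% and 10.3% from MPP1 to MPP4 and 18.9% in the mean. In aged GMPs 2 of the 8 were lower (8.97% of all genes). In MEPs 1 was higher and 2 were lower (9.08% and 11.7%), and in CLPs 4 were lower (4.73%), with a median of -0.30. Mthfd2, the mitochondrial folate enzyme, had 14.6 and 16 CPM in young and 32.7 and 34.3 in aged MPP1 (1.13 ± 0.11, adjusted p 1.5e-06). It had 22.9 and 25.0 in young and 49.1 and 46.7 in aged MPP4 (log2 fold change 1.00), and the ages did not overlap in any MPP. In CLPs it was lower, at 77.0 and 75.2 CPM in young and 51.6 and 62.4 in aged libraries (-0.42 ± 0.11, adjusted p 0.0078). That call was lost without either young library or aged CLP 1 and in the fit of the 4 libraries.

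Asns had 35.7 and 34.3 CPM in young and 66.8 and 64.8 in aged MPP1, a log2 fold change of 0.91 (adjusted p 5.5e-05), and 18.8 and 21.7 against 45 and 41.1 in MPP4 (1.09 ± 0.13, adjusted p 4.41e-06). In HSCs it had 42.5 and 41.9 CPM in young and 60.4 and 75.5 in aged cells (0.69 ± 0.13, adjusted p 0.000982). It was the member with the largest change called in HSCs and in MPP2 and MPP4, and the aged libraries were above the young ones in all 5 fractions. In MEPs, where it was most abundant, it had 548 and 573 CPM in young and 607 and 601 in aged libraries (0.11, adjusted p 0.549). In CLPs the aged value of 7.34 lay below and that of 12.5 within the young values of 11.7 and 13.

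Psat1 and Shmt1 were each called in 7 fractions, higher in MPP1 to MPP4 and lower in GMPs, MEPs and CLPs. The lower calls, apart from that of Shmt1 in MEPs, were lost in the fit of the 4 libraries of the fraction. Each of those was also lost without some single libraries, such as Psat1 in MEPs without young MEP 1 or either aged library. Psat1 (chr19:15904678-15947337, minus strand), the aminotransferase of serine synthesis, had 152 and 156 CPM in young and 252 and 250 in aged MPP3 (0.71 ± 0.09, adjusted p 1.13e-05). It had 271 and 321 in young and 218 and 239 in aged GMPs (-0.37 ± 0.09, adjusted p 0.00353), and 175 and 170 in young and 116 and 135 in aged CLPs (-0.46, adjusted p 0.00111). The ages were fully separated in all 3. Shmt1 (chr11:60788104-60811718, minus strand), the cytosolic serine hydroxymethyltransferase, had 100 and 101 CPM in young and 163 and 179 in aged MPP4 (0.77 ± 0.07, adjusted p 1.84e-07). In MEPs it had 48.7 and 54.9 in young and 28.8 and 26.1 in aged libraries (-0.92 ± 0.08, adjusted p 1.84e-08), the largest decrease of a called member in any fraction apart from Ddit4. Shmt2, its mitochondrial counterpart, was higher in MPP2, MPP3 and MPP4 (0.71, 0.83 and 0.96) and had a change of 0.22 in MEPs (adjusted p 0.175).

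Mthfd1, which interconverts folate carriers in the cytosol, had 203 and 205 CPM in young and 294 and 317 in aged MPP4 (0.59, adjusted p 1.41e-06). It was also higher in MEPs, at 1180 and 1170 in young and 1360 and 1470 in aged libraries (0.27 ± 0.06, adjusted p 0.00304), and lower in CLPs, at 198 and 208 in young and 165 and 174 in aged libraries (-0.26, adjusted p 0.00864). The call in MEPs was lost without either young library or aged MEP 2, and that in CLPs without any 1 library. Phgdh was higher in MPP2 to MPP4 (0.38, 0.51 and 0.53) and in HSCs had 456 and 476 CPM in young and 354 and 413 in aged cells, a change of -0.28 that did not pass (adjusted p 0.0215). Psph was called in MPP3 alone among single fractions (0.41). Its exons overlap those of Cct6a by 452 bases, and Cct6a had a mean of 668 CPM, so that its counts are uncertain. Exons of Aars overlap those of Exosc6 by 1326 bases, with a mean of 79.4 CPM for Exosc6 and 173 for Aars, so that its counts are uncertain too. Exons of Farsb, Hars, Mars, Yars, Shmt1, Shmt2 and Mthfd1 also overlap those of another gene, and reads were counted with no stated use of strand.

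**Figure D4:**
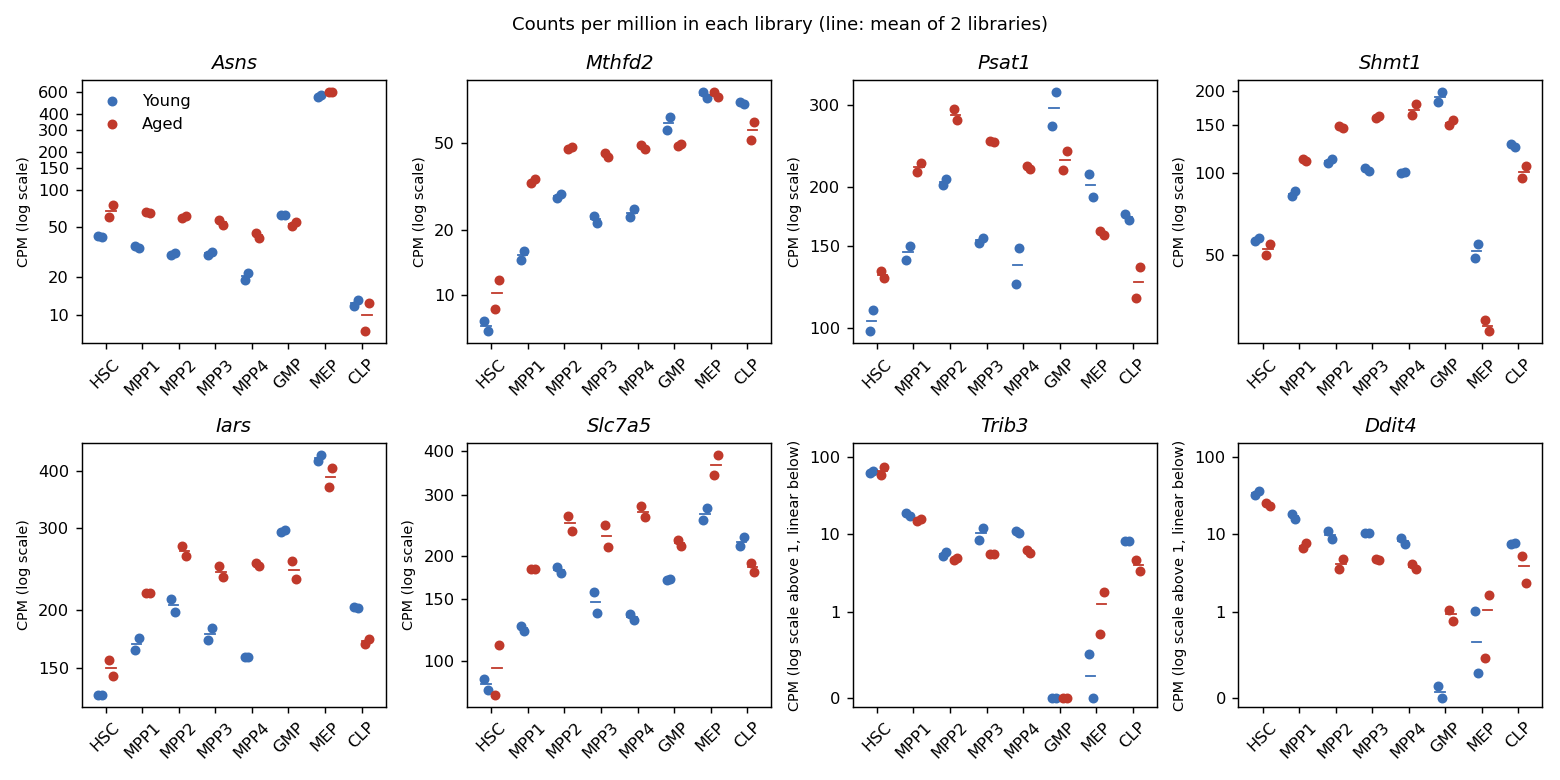
Level in CPM (log axis, linear below 1 for Trib3 and Ddit4) of 8 members in every library, Young and Aged, by fraction, with each point a library. Asns, Mthfd2, Psat1, Shmt1, Iars and Slc7a5 are higher in all aged libraries of MPP1 to MPP4 than in the young ones. Trib3 is at 0 in the 4 GMP libraries and Ddit4 is lower in the aged MPP libraries.

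Of the 3 transport genes, Slc7a5 (chr8:121881150-121907694, minus strand), which carries leucine and other large amino acids, was the only member called. It had 136 and 131 CPM in young and 278 and 258 in aged MPP4 (1.01 ± 0.11, adjusted p 9.53e-07), and 126 and 122 against 184 and 183 in MPP1 (0.56, adjusted p 0.00127). It was also higher in MEPs, at 254 and 275 in young and 342 and 390 in aged libraries (0.47, adjusted p 0.00206). The ages were separated in each of these fractions, while in HSCs the aged values of 79.7 and 111 CPM enclosed the young values of 88.4 and 82.5. Its partner Slc3a2 had 222 and 173 CPM in young and 277 and 274 in aged MEPs (0.48 ± 0.20, adjusted p 0.0698), and a mean change over the MPPs of 0.06 that was not called. Slc7a11 had 2 and 4 counts in young HSCs and 14 and 15 in aged HSCs (adjusted p 0.344).

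The 3 genes induced by stress were not called higher in any MPP fraction (edgeR). Ddit4, an inhibitor of mTORC1 signalling, was the member called lower in an MPP fraction, at 18.4 and 15.9 CPM in young and 6.58 and 7.65 in aged MPP1 (-1.27 ± 0.31, adjusted p 0.0093). In MPP4 it had 8.97 and 7.61 CPM in young and 4.15 and 3.54 in aged libraries (-1.11, adjusted p 0.0192), and the mean change over the MPPs was -1.18 ± 0.16 (adjusted p 4.47e-06). All 8 aged MPP libraries were below the young libraries of their fraction. In GMPs its counts were 2 and 0 in young and 12 and 10 in aged libraries, a ratio of 14.0 with a 95% counting interval of 3.44 to 123 (exact binomial, adjusted p 0.00376 in edgeR). In young MPPs together it stood at 164 times its level in young GMPs, with an interval of 45.2 to 1350 from 1308 counts against 2.

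Trib3, a pseudokinase that binds and restrains Akt and Atf4, was highest in HSCs, at 62.0 and 64.6 CPM in young and 58.8 and 74.0 in aged libraries, where the ages overlapped. It had 11.1 and 10.3 CPM in young and 6.23 and 5.78 in aged MPP4 (-0.83, adjusted p 0.0317), and its mean change over the MPPs was -0.53 ± 0.14 (adjusted p 0.0033). All 4 GMP libraries had 0 counts, which put young GMPs at least 52.8-fold below the mean of young MPPs (floor of 3 counts per library). In MEPs it had 8 and 0 counts in young and 8 and 21 in aged libraries, a ratio of 4.81 with an interval of 2.14 to 12.2 (exact binomial, adjusted p 0.00804 in edgeR), and 1 aged library lay at the count of the higher young library. Chac1 was called in no fraction, and in MPP2 the ratio of aged to young counts was 3.97 with an interval of 1.09 to 21.7.

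Whether the age difference itself differed between fractions was tested against the mean age difference of MPP1 to MPP4. It was lower in CLPs for 24 members and higher for 0, in GMPs lower for 22 and higher for 1, in MEPs lower for 16 and higher for 1, and in HSCs lower for 9 and higher for 0. Of all genes, 22.6% differed in CLPs (10.3% higher and 12.3% lower), 26.6% in GMPs (12.7% higher and 13.8% lower), 24.8% in MEPs (10.2% higher and 14.7% lower) and 3.01% in HSCs (1.91% higher and 1.1% lower). Across the 8 fractions together, the age difference varied for 26 members, where it varied for 34.9% of all genes. These comparisons share the MPP libraries and are not independent of each other. At an unadjusted p under 0.05 in edgeR, 0 members in CLPs, 1 in GMPs, 3 in MEPs and 1 in HSCs had a higher difference. In the same order 27, 25, 19 and 23 had a lower one, and the share of all genes at that threshold was not counted.

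The median log2 difference of the members was -0.48 in CLPs, -0.53 in GMPs, -0.28 in MEPs and -0.27 in HSCs, beside medians over all genes of 0.04, 0.05, -0.03 and 0.05. Mthfd2 was among the largest, at -1.38 ± 0.12 in CLPs and -1.29 ± 0.12 in GMPs (adjusted p 3.18e-08 and 6.34e-08), and Shmt1 in MEPs was at -1.48 ± 0.09 (adjusted p 5.87e-11). Asns was lower by -1.27 ± 0.17 in CLPs and -1.20 ± 0.14 in GMPs, and in HSCs its difference of -0.27 ± 0.14 did not pass (adjusted p 0.288). The 9 members with a lower difference in HSCs were Cars, Gars, Farsa, Mars, Aars, Yars, Phgdh, Shmt1 and Shmt2. For Lars in HSCs no difference from the MPPs was detectable (0.03 ± 0.09, adjusted p 0.956). The members with a higher difference were Ddit4 in GMPs (4.82 ± 0.88) and Trib3 in MEPs (2.76 ± 0.62), both from libraries at or under 3 counts, so that these fitted values are no measure of size.

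Other genes of the same pathways were counted from lists, beside 18.9% of all genes higher and 17.7% lower in the mean over the MPPs. Of 17 mitochondrial tRNA synthetases, 13 were higher and 0 lower in the mean over the MPPs (median 0.26), such as Tars2 (0.46), and in single fractions 3 to 5 were higher in the MPPs (4.49% to 10.3% of all genes), 6 in MEPs (9.08%) and 1 in HSCs (3.74%). In GMPs 2 were higher and 2 lower (9.93% and 8.97%), and in CLPs 1 was higher and 1 lower (5.71% and 4.73%). Of 7 genes of the multisynthetase scaffold and aminoacyl-tRNA delivery, 5 were higher in the mean over the MPPs and 4 lower in GMPs, with Eef1g, a subunit of the exchange factor that recharges the carrier of aminoacyl-tRNA with GTP, at 0.43 and -0.35. Of 13 tested further genes of folate and glycine metabolism, 7 were higher and 0 lower in the mean over the MPPs, among them Tyms (0.76) and Mthfd1l (0.50), and 5 were lower in CLPs. Of 14 other amino acid transporters, 3 were higher and 2 lower in the mean over the MPPs, close to the shares of all genes, and Slc1a5, a glutamine transporter, had a change of 0.33 there and -0.49 in CLPs.

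Of 22 regulators of the response and other Atf4 targets, 7 were higher and 3 lower in the mean over the MPPs, with a median log2 fold change of 0.03, where 18.9% of all genes were higher and 17.7% lower. Atf4 mRNA had a mean change over the MPPs of 0.03 ± 0.05 (adjusted p 0.653), with means of 165 CPM in young and 157 in aged MPP4. It was higher in GMPs, from 91.0 to 165 (0.86, adjusted p 1.17e-06), and in MEPs, from 109 to 197 (0.86, adjusted p 5.39e-07), and lower in CLPs, from 187 to 146 (-0.36, adjusted p 0.00897). Aldh18a1, which starts proline synthesis, was higher in the mean over the MPPs (0.42), and Ppp1r15a, which returns eIF2alpha to its unphosphorylated form, was lower there (-0.76, adjusted p 1.42e-06) and higher in GMPs (2.97, from 12.4 to 97.6 CPM, adjusted p 1.48e-08). The activity of Atf4, which depends on translation, was not measured by mRNA counts.

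Cell cycle genes moved with the members in several fractions. Of 20 such genes, from MPP1 to MPP4 respectively 17, 12, 19 and 16 were higher with age, as were 11 in HSCs, with 0 lower, while 9 were higher and 6 lower in GMPs, 2 higher and 6 lower in MEPs, and 0 higher and 12 lower in CLPs. The shares of all genes higher in those comparisons were 4.71%, 4.49%, 8.14% and 10.3% from MPP1 to MPP4 and 3.74% in HSCs, and 4.73% were lower in CLPs. In GMPs 9.93% of all genes were higher and 8.97% lower, and in MEPs 9.08% and 11.7%. The mean log2 CPM of the 20 cell cycle genes was 7.82 in both young and 8.41 and 8.45 in aged MPP4 libraries, and 8.64 and 8.65 in young and 8.12 and 8.40 in aged CLP libraries. The mean log2 CPM of the 20 synthetases was 7.01 and 7.05 in young and 7.52 and 7.61 in aged MPP4 libraries, and 7.36 in both young and 7.25 and 7.30 in aged CLP libraries. In GMPs the cell cycle mean was 8.19 and 8.20 in young and 8.44 and 8.47 in aged libraries, while the synthetase mean was 7.86 and 7.83 in young and 7.71 in both aged libraries. The median log2 fold change of the 20 cell cycle genes in GMPs was -0.01. The 6 lower there were Pcna, Mcm4, Mcm5, Mcm6, Rrm1 and Rrm2. The 9 higher were Cdc20, Bub1, Aurka, Aurkb, Ccnb1, Plk1, Top2a, Cdk1 and Mki67. In HSCs the cell cycle mean went from 5.45 and 5.51 to 6.10 and 6.06, and the synthetase mean from 6.81 and 6.78 to 6.90 and 6.89. The part of the cell cycle in the members' changes was not tested.

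**Figure D5:**
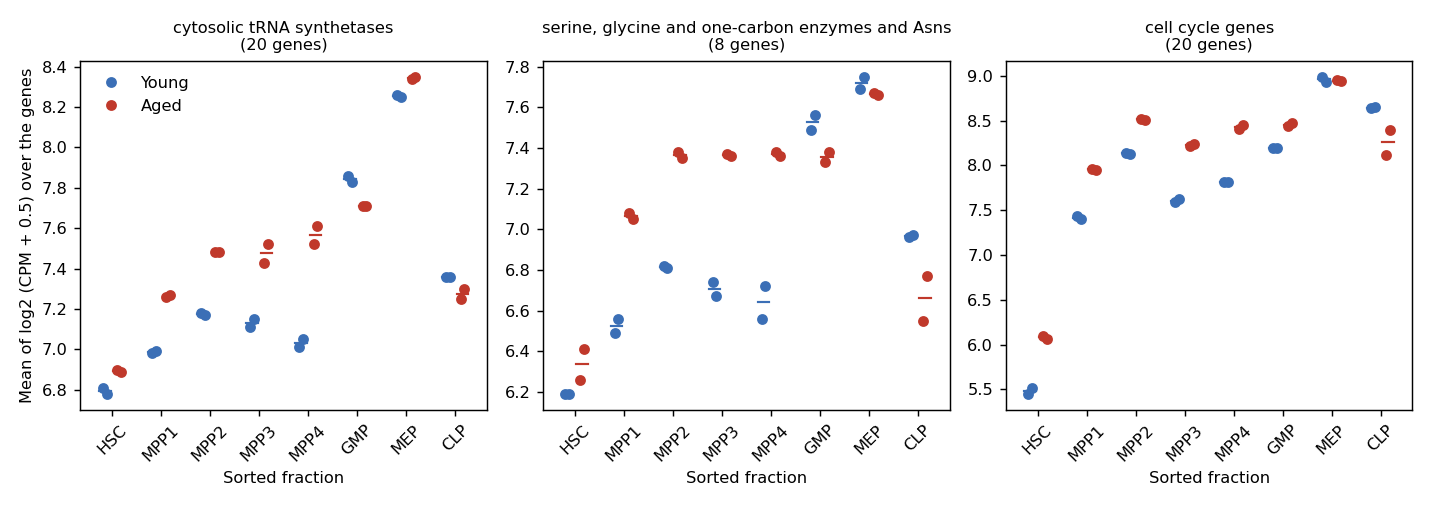
Mean log2(CPM + 0.5) of the 20 synthetases, of the 8 enzymes of serine, glycine, folate and asparagine synthesis and of 20 cell cycle genes in every library (points), Young and Aged, by fraction, with lines at the means. In aged MPP1 to MPP4 all 3 lie above the young libraries. In aged GMPs the mean of the cell cycle genes lies above and that of the synthetases below. Of the cell cycle genes 9 were called higher and 6 lower in GMPs.

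Markers of other cell types also differed with age in CLPs and GMPs, where more members fell than rose, and in MEPs, where more rose than fell. In CLPs all 6 basophil and mast cell markers were lower, with a summed level of 1740 to 1790 CPM in young and 8.26 to 12.3 in aged libraries and Prss34 at 0 in aged cells. All 6 macrophage markers were lower there (137 to 152 and 2.60 to 3.24 CPM, Cd5l at 0), as were 6 of 7 B lineage markers (2570 to 2640 and 1250), 5 of 6 neutrophil markers (556 to 563 and 83.8 to 155), 1 of 7 erythroid markers (1370 to 1420 and 73.1 to 522) and 1 of 6 T and NK cell markers (83.2 to 83.9 and 53.7 to 61.7), while 5 of 6 megakaryocyte markers were higher (38.4 to 39.8 and 115 to 185). In GMPs 2 of 6 basophil and mast cell markers (652 to 662 and 277 to 355 CPM), 3 of 6 macrophage markers (135 to 150 and 102 to 138, with C1qa, C1qb, C1qc and Cd5l at 0 in aged cells), 4 of 6 neutrophil markers (275 to 276 and 89.1 to 121) and 3 of 7 erythroid markers (772 to 844 and 30.5 to 82.7) were lower. Of 7 B lineage markers 1 was also lower in GMPs, and 1 of 6 T and NK cell markers was higher (687 to 736 and 984 to 1060). In MEPs 6 of 7 B lineage markers were lower, at 182 to 193 CPM in young and 0.430 to 1.22 in aged libraries with Cd79a, Pax5, Ebf1 and Igll1 among those at 0. Also lower there were 3 of 6 macrophage markers (5.53 to 8.64 and 0 to 0.516), 1 of 7 erythroid markers (1130 to 1160 and 527 to 543), 1 of 6 megakaryocyte markers (75.8 to 83.3 and 42.8 to 46.3) and 1 of 6 basophil and mast cell markers (3.78 to 3.95 and 0.688 to 1.12). In the same cells 1 of 6 neutrophil markers was higher (5.02 to 5.31 and 0.775 to 13.8). Of 6 T and NK cell markers 1 was higher and 1 lower (28.0 to 34.6 and 11.9 to 15.2). Of 8 sort antigens 5 were lower in MEPs, with Cd48 at a mean of 53 CPM in young and 14.3 in aged cells, and in CLPs 2 were higher and 1 lower, with Ly6a at 35.2 and 214. In each of MPP2, MPP3 and MPP4 1 sort antigen was higher and 2 were lower. Their summed level in MPP4 was 3720 to 3830 CPM in young and 3130 to 3260 in aged libraries. In MPP1 and in GMPs 1 was higher and 1 lower, and in HSCs 1 was lower.

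In MPP4, where the most members rose, 0 of 7 erythroid, 0 of 6 neutrophil and 0 of 7 B lineage markers passed, at summed levels of 358 to 435, 28.0 to 34.8 and 46.0 to 55.6 CPM in young and 112 to 115, 35.2 to 36.9 and 41.3 to 43.7 in aged libraries. There 4 of 6 macrophage markers (42.6 to 48.0 and 9.47 to 11 CPM), 3 of 6 megakaryocyte markers (255 to 265 and 81.4 to 82.2) and 2 of 6 basophil and mast cell markers (19.9 to 23.4 and 5.64 to 6.08) were lower and 1 of 6 T and NK cell markers was higher (98.6 to 115 and 161 to 163). In MPP3 5 of 6 neutrophil markers (1080 and 175 to 238), 3 of 7 erythroid markers (1070 to 1100 and 208 to 230), 4 of 6 macrophage markers (99.1 to 108 and 30.6), 4 of 6 megakaryocyte markers (568 to 623 and 302 to 338) and 3 of 7 B lineage markers (48.6 to 49.1 and 42.4 to 42.6) were lower. Of 6 basophil and mast cell markers 1 was higher and 1 lower in MPP3 (251 to 252 and 297 to 308). Of 6 T and NK cell markers 1 was lower there (168 to 178 and 210 to 214). In MPP2 5 of 6 neutrophil markers (654 to 695 and 252 to 258), 3 of 7 erythroid markers (921 to 964 and 210 to 223), 3 of 6 megakaryocyte markers (788 to 821 and 532 to 543), 3 of 6 basophil and mast cell markers (72.6 to 74.1 and 41.9 to 44.8) and 2 of 6 macrophage markers (118 to 131 and 40) were lower. Of the 6 basophil and mast cell markers 1 was higher in MPP2, and 1 of 7 B lineage markers was lower there. In HSCs 5 of 6 neutrophil markers (55.5 to 61.2 and 274 to 305), 4 of 6 basophil and mast cell markers (0.978 to 1.62 and 10.3 to 18.2) and 2 of 6 T and NK cell markers (27.4 to 30.2 and 82 to 92.6) were higher, and in MPP1 no list had more than 1 marker called in a direction. Of 6 macrophage markers 1 was lower in HSCs, and 1 of 6 megakaryocyte markers was higher there. The part of other cells in the members' changes was not tested.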

How the data were processed

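RNA was amplified with a SMARTer Ultra Low Input kit, sheared and sequenced on an Illumina HiSeq, without molecular identifiers. Per the submitters' processing notes the authors used TopHat2 2.0.13, Bowtie2 2.1.0 and StringTie with mm10. The authors deposited raw counts per gene, with no stated use of strand. Only these counts were used. A deposited table of normalized values (32 per-sample columns) and 8 tables of the authors' own comparisons by DESeq2, which hold fold changes and p-values, were not used.

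Columns were matched to groups by name. All 32 libraries entered 1 quasi-likelihood fit in edgeR 4.0.16 (R 4.3.3, limma 3.58.1), with TMM normalization (factors 0.807 to 1.11), filterByExpr (14154 genes) and 16 residual degrees of freedom. P-values were two-sided and adjusted by Benjamini-Hochberg over all genes in a contrast, with a threshold of 0.01 as in the study. The groups of a fraction share replicate numbers, but deviations of same-numbered Young and Aged libraries had correlations of -0.056 to 0.07 over genes, so the numbers were not taken as pairs.

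Lists of related genes, cell cycle genes and cell type markers were counted with no set test. The members and lists were chosen with earlier results of these data known. Members were named where they were called in at least 4 fractions, called in opposite directions, among the 3 largest called changes of a comparison, the highest or lowest of their role per kilobase, or at or under 3 counts in a library, and 12 of them have their values per library, with Trib3, Ddit4 and some others added. Mean log2 levels of lists used CPM + 0.5. Positions and lengths came from GENCODE M21 (GRCm38), which matched 23350 of 24419 symbols and all 34 members, and promoters from RefSeq. Scripts were tested on simulated data. Python 3.11.15, pandas 2.3.3, scipy 1.17.1 and matplotlib 3.10.9 were used, and DESeq2 1.42.0 for an alternative. Other alternatives were DESeq2 size factors, no filter, offsets for GC content and length, an adjusted p under 0.05, a fit of the 4 libraries of a fraction, a replicate block and leaving out each library. Intervals and floors cover counting error only. Some items are not reported here.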

Additional observations from a re-analysis of the deposited data

Results flagged for a closer look

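The members below had an age difference, Aged minus Young on the log2 scale, that itself differed from the mean age difference of MPP1 to MPP4 at an adjusted p under 0.01 by edgeR's quasi-likelihood test. Each value in parentheses is the difference in the fraction minus that mean, with 2 libraries per fraction and age. The 4 fractions were set against the same MPP libraries, so the values of a gene are not independent of each other.

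In CLPs it was lower for the synthetases Cars (-0.83), Mars (-0.81), Aars (-0.78), Iars (-0.71), Gars (-0.68), Yars (-0.62), Rars (-0.50), Farsb (-0.48), Vars (-0.47), Tars (-0.46), Lars (-0.45), Hars (-0.39), Nars (-0.38), Dars (-0.36) and Kars (-0.34). The enzymes of serine, glycine, folate and asparagine synthesis with a lower difference in CLPs were Mthfd2 (-1.38), Asns (-1.27), Psat1 (-1.09), Shmt2 (-1.02), Shmt1 (-0.88), Mthfd1 (-0.67), Phgdh (-0.59) and Psph (-0.46). Of the transport genes it was lower for Slc7a5 (-0.91).

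In GMPs it was lower for the synthetases Rars (-0.82), Dars (-0.81), Mars (-0.81), Yars (-0.75), Iars (-0.75), Gars (-0.71), Farsb (-0.70), Lars (-0.69), Tars (-0.57), Nars (-0.57), Kars (-0.54), Cars (-0.52), Qars (-0.40), Aars (-0.40) and Hars (-0.38). The enzymes of serine, glycine, folate and asparagine synthesis with a lower difference in GMPs were Mthfd2 (-1.29), Asns (-1.20), Psat1 (-1.0), Shmt1 (-0.87), Shmt2 (-0.76), Mthfd1 (-0.45) and Phgdh (-0.35). It was higher in GMPs for Ddit4 (4.82), with 2 and 0 counts in the young libraries.

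In MEPs it was lower for the synthetases Dars (-0.68), Lars (-0.62), Iars (-0.61), Mars (-0.55), Rars (-0.47), Farsb (-0.39), Gars (-0.38), Aars (-0.38), Tars (-0.31) and Yars (-0.28). The enzymes of serine, glycine, folate and asparagine synthesis with a lower difference in MEPs were Shmt1 (-1.48), Psat1 (-0.97), Mthfd2 (-0.96), Asns (-0.85), Shmt2 (-0.51) and Phgdh (-0.33). It was higher in MEPs for Trib3 (2.76), with 8 and 0 counts in the young libraries.

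In HSCs it was lower for the synthetases Cars (-0.69), Mars (-0.64), Yars (-0.58), Aars (-0.41), Gars (-0.36) and Farsa (-0.35). The enzymes of serine, glycine, folate and asparagine synthesis with a lower difference in HSCs were Phgdh (-0.69), Shmt2 (-0.69) and Shmt1 (-0.67).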

How the results depend on the processing

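Depth limited the statements on Slc7a11, Chac1, Trib3 and Ddit4, which had libraries at or under 3 counts, and 2 libraries per group limited the rest. No call of a member reversed under any alternative.

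Of the members called in HSCs (2), a DESeq2 test gave 6, offsets for GC content and length 5, an adjusted p under 0.05 gave 7 and a fit of only the 4 libraries 0 (6 at an unadjusted p under 0.05 in edgeR). In CLPs (5) DESeq2 size factors gave 3, the DESeq2 test 9, no filter 3, the offsets 8, an adjusted p under 0.05 gave 8 and the 4 libraries 0 (12 at an unadjusted p under 0.05). In GMPs (10) the DESeq2 test and an adjusted p under 0.05 gave 16 each and the 4 libraries 1. The 4 libraries gave 27 in MPP2 (16), 14 in MPP3 (24) and 3 in MEPs (10). For the difference of HSCs from the MPPs (9) an adjusted p under 0.05 gave 16. The cause of these shifts was not tested.

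Leaving out 1 library gave 1 to 4 in HSCs (1 without young HSC 2, 4 without aged HSC 2), 11 to 13 for MPP1, 8 to 12 for MPP2 (10 without young MPP2 1, 8 without aged MPP2 1), 16 to 20 for MPP3, 23 to 25 for MPP4, 4 to 6 for GMPs (6 and 5 without young GMP 1 and 2, 4 and 5 without aged GMP 1 and 2), 4 to 8 in MEPs (6 without young MEP 1, 4 without aged MEP 2) and 0 to 5 in CLPs. The count in CLPs was 0 without young CLP 1 or aged CLP 1 (11 and 12 at an unadjusted p under 0.05) and 1 without young CLP 2. For the mean over the MPPs it was 28 to 30. For the differences from it the ranges were 4 to 15 in HSCs (4 without young HSC 2, 14 and 15 without young MPP1 2 and young MPP4 2), 21 to 24 in GMPs, 13 to 20 in MEPs and 19 to 25 in CLPs. In the comparisons of young fractions they were 17 to 22 in HSCs, 27 to 28 in GMPs, 29 to 30 in MEPs and 18 to 21 in CLPs, and 23 to 28 for the variation among 8 fractions.

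By gene, Mthfd2 in MPP1, Asns in MPP4 and Shmt1 in MEPs kept their calls under every alternative. Without any 1 library of their fraction, calls held for 1 member in HSCs (Lars), 10, 7, 16 and 22 from MPP1 to MPP4, 3 in GMPs (Dars, Farsb, Rars), 3 in MEPs (Dars, Farsa, Shmt1) and 0 in CLPs. Ddit4 in MPP1 lost its call without any 1 of the 4 libraries and with the replicate block, Ddit4 in GMPs without young GMP 2 or either aged library, Asns in HSCs without either young library or aged HSC 2, and Psat1 in CLPs without young CLP 1 or aged CLP 1. Trib3 in MEPs lost it without young MEP 2 or aged MEP 2, without the filter, with the offsets and in the fit of 4 libraries. Yars and Mthfd1 in MEPs lost it with DESeq2 size factors, without the filter, with the offsets and in the fit of 4 libraries, Iars and Mthfd1 in CLPs with size factors, without the filter and in the fit of 4 libraries, and Gars in GMPs with the offsets and in the fit of 4 libraries.

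With the replicate number as a block, the members called were 2 for HSCs, 15, 17, 23 and 25 from MPP1 to MPP4, 9 for GMPs, 10 for MEPs, 5 for CLPs and 30 for the mean over the MPPs. The block lost 4 of 236 calls of members. The numbers were not taken as pairs of Young and Aged libraries. Whether same-numbered libraries of different fractions shared a pool of marrow was not tested, so the fractions of an age may not be independent. With DESeq2 size factors the part higher among called genes went from 62.2% to 52.0% over all genes in MPP4 and from 63.6% to 74.9% for the difference of HSCs from the MPPs, while for the members it was 100% and 0% under both scalings. No scaling moved the median of all genes by as much as 0.1 on the log2 scale.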
